A study of Mus musculus with 4 samples.

Results

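Fibroblast growth factors (FGFs), hepatocyte growth factor (HGF) and their receptors were examined in cultured mouse primary myoblasts with and without the DNA dioxygenase Tet2. The 10 genes were the ligands Fgf2, Fgf7, Fgf21 and Hgf and the receptors Fgfr1, Fgfr2, Fgfr3, Fgfr4, Met and Egfr. They were found by gene symbol, each as 1 of the 24445 genes of the deposited expression table. RNA was sequenced from 2 WT and 2 Tet2 KO libraries, both from C57BL/6 mice; where the methods give no other age, animals were males of 8 to 10 weeks. Tet2 KO animals carried a constitutive deletion of exon 3 of Tet2 in all cells, and WT animals carried no allele or treatment named in the labels. Satellite cells are resident stem cells of muscle, and hindlimb muscle was sorted for such cells, without the surface proteins CD45, CD11b, CD31 and Sca1 and with CD34 and integrin alpha 7. They were grown on collagen for at least 3 days in both groups until they had become MyoD+ myoblasts. The table gave 1 expression value per gene and group, in FPKM (fragments per kilobase of transcript, scaled to the number of mapped fragments), so neither a spread between libraries nor a test across animals stands beside any value below.

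FGFs signal through receptor tyrosine kinases, with heparan sulfate chains on the cell surface as partners. HGF signals through the receptor kinase Met in the same manner, and both routes reach the Ras-MAPK cascade, whose output is limited by feedback inhibitors such as the Sprouty and Spred proteins. In muscle, HGF is known as an activator of quiescent satellite cells, and FGF2 as a factor that keeps myoblasts dividing and delays their differentiation.

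Promoter sequence is shown for Fgf2 and Fgf21, since these were the members with the largest ratios between the groups. The 250 bases before the RefSeq start site were taken from a GRCm38.p6 table and placed in mm9, the build of the deposited table, by an exact match that occurred once. Each start site fell on the edge of the gene's locus in the deposited table. The Fgf2 stretch lay at chr3:37247325-37247574 on the plus strand and the Fgf21 stretch at chr7:52870861-52871110 on the minus strand. Capitals mark E-boxes, the motif CANNTG bound by MyoD and other basic helix-loop-helix factors, and the motif TGATGCAA on either strand, a core that the stress factor ATF4 binds.
Fgf2: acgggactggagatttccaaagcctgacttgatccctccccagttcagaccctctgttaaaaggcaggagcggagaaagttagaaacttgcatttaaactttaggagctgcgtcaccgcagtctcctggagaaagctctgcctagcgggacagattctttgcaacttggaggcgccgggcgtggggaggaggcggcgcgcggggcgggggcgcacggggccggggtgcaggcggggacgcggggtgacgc
Fgf21: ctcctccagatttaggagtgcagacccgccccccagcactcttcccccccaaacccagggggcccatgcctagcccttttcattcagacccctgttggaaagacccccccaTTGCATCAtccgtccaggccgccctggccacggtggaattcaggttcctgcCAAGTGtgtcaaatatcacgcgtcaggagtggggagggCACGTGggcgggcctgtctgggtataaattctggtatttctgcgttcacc

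The Fgf21 stretch held 2 E-boxes, whose first bases lay at -88 and -50 from the start site, and TGATGCAA on the opposite strand at -139. The Fgf2 stretch held neither motif. Tet2 acts on methylated cytosines of CG dinucleotides, and these numbered 20 in the Fgf2 stretch and 9 in the Fgf21 stretch. Among 11633 windows of genes that averaged 1 FPKM or more, the median number of CG dinucleotides was 16, with quartiles at 9 and 23. An E-box was present in 7 of the 11 windows of 9 members, and in 57.1% of those 11633 windows. Over all 32851 windows the share was 66.2%. The member windows include that of Fgfr2, which held an E-box although the gene averaged less than 1 FPKM. TGATGCAA was present in 1 member window, that of Fgf21, and in 0.524% of the 11633. A single window is too few to compare with that share. These matches describe the letters of the windows and not binding.

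The targeted gene gives no check of the labels at this resolution. Tet2 had 6.64 FPKM in WT and 5.79 in Tet2 KO, and the gene-level value covers all exons. The labelled cell type was present in both groups. The myoblast markers Myod1, Myf5 and Pax7 had 313, 57.4 and 11.0 FPKM in Tet2 KO, and 336, 61.8 and 11.1 FPKM in WT. All 7 myoblast markers had lower values in Tet2 KO, most of them by little. Their summed level was 1710 FPKM in WT and 1300 in Tet2 KO. Of the 7 markers 1 was past 2-fold, Myog, the gene of the differentiation factor myogenin, with 554 FPKM in WT and 268 in Tet2 KO. Leukocyte transcripts were also present and differed between the groups. All 10 leukocyte markers had higher values in Tet2 KO, 8 of them past 2-fold, and their summed level was 119 FPKM in WT and 468 in Tet2 KO. They included Ptprc and Itgam, which encode the sort markers CD45 and CD11b, with 5.67 and 10.1 FPKM in Tet2 KO and 1.36 and 2.09 FPKM in WT. None of the 10 was at 0 in either group. Their part in the values of the members was not tested. In bulk RNA, fewer cells of a type and less RNA per cell cannot be told apart.

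A log2 ratio below compares Tet2 KO with WT on the log2(FPKM + 1) scale, which understates the difference of genes with low values. A gene was counted as past 2-fold at a log2 ratio of at least 1 in either direction, provided that its mean FPKM over both groups was at least 1. Of the 10 members, 9 reached that level, and Fgfr2 did not. Fgf2 was past 2-fold higher in Tet2 KO and Fgf21 was past 2-fold lower, which makes 1 of 9 members in each direction. Among the 11692 genes of the table that reached the level, 2.08% were past 2-fold higher, 1.21% past 2-fold lower and 3.29% past it in either direction. At 1.5-fold on this scale Fgf2 and Fgf21 were still the 2 members counted, against 3.72% of all these genes higher and 2.89% lower. That count depends on the pseudocount. Without one, Fgf7 and Hgf were also past 1.5-fold higher and Fgfr3 past 1.5-fold lower, which makes 3 of 9 members higher and 2 lower, against 4.94% and 4.01% of 11687 genes above 0 in both groups. The median log2 ratio was 0.02 over the 9 members and -0.0044 over all 11692 genes. With so few members these shares say little about the members as a set. Both members past 2-fold were ligands, whereas the wider count without a pseudocount also held the receptor Fgfr3.

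**Figure D1:**
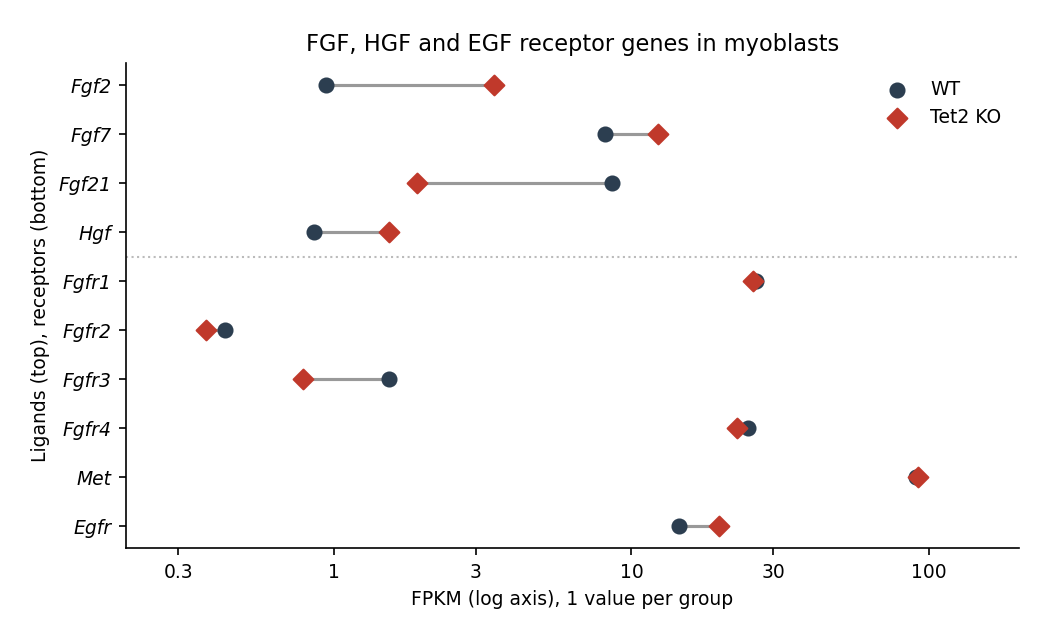
Expression of the 10 genes in FPKM on a log axis, with 1 value per group (circle, WT; diamond, Tet2 KO) joined by a line; ligands stand above the dotted line and receptors below it. Fgf2 and Fgf21 show the longest lines and run in opposite directions, whereas Met, Fgfr1 and Fgfr4 nearly coincide.

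The ligands were examined first. Fgf2, basic FGF, had 0.94 FPKM in WT and 3.44 in Tet2 KO, a 3.66-fold higher value and a log2 ratio of 1.19. It lay among the less abundant members in WT, where it was the eighth of 10, and was the sixth in Tet2 KO. Of 1778 genes with a mean FPKM from 2 to 5, 3.77% had a log2 ratio as high as that of Fgf2 or higher, so ratios of this size were not rare at its level. Fgf2 occupies 37247575 to 37303752 on chromosome 3 of mm9 in the deposited table. In the GENCODE vM1 annotation of that build, 13.4% of its exon bases are shared with Nudt6, a gene on the opposite strand. The library kit does not mark strand, so reads of both genes in the shared part cannot be told apart. Nudt6 had 3.46 FPKM in WT and 4.11 in Tet2 KO. Smaller parts of the exon bases are shared with Cetn4, 3.05%, and Bbs12, 1.78%. Cetn4 had 2.04 FPKM in WT and 2.15 in Tet2 KO, and Bbs12 had 12.7 and 12.8 FPKM. The annotated gene spans 92859 bases and the deposited locus 56178, so the shared parts may differ in the measured locus.

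Fgf21, a hormone-like FGF that acts with the co-receptor beta-Klotho, differed in the other direction. It had 8.62 FPKM in WT and 1.90 in Tet2 KO, a 4.53-fold lower value in Tet2 KO and a log2 ratio of -1.73. This was the largest difference among the 10 members both in FPKM and as a ratio, and it took Fgf21 from the fifth most abundant member in WT to the seventh in Tet2 KO. Of 4312 genes with a mean FPKM from 5 to 20, 0.186% had a log2 ratio as low or lower. In either direction, 0.904% had a ratio at least as far from 0. Fgf21 lies on the minus strand of chromosome 7 from 52869260 to 52870860, with 3 exons in its 1 annotated transcript, and shared no exon base with another annotated gene. Klb, which encodes beta-Klotho, had 0.0761 FPKM in WT and 0.0935 in Tet2 KO, near the bottom of the measured range in both groups.

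Fgf7, keratinocyte growth factor, had 8.13 FPKM in WT and 12.3 in Tet2 KO, a log2 ratio of 0.54. It was 1.51-fold higher in Tet2 KO and became the most abundant ligand there. Its locus in the deposited table, 125684845 to 125977740 on chromosome 2, was merged with that of Galk2, which had 16.4 FPKM in WT and 14.4 in Tet2 KO. The annotated exons of the pair do not overlap. Across the 3 FGF ligands the summed level was nearly equal, 17.7 FPKM in WT and 17.6 in Tet2 KO, while its make-up differed. Fgf21 made up 48.7% of that sum in WT and 10.8% in Tet2 KO. Fgf2 made up 5.31% in WT and 19.5% in Tet2 KO, and Fgf7 made up 46.0% and 69.7%.

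Hgf, the ligand of Met, had 0.858 FPKM in WT and 1.53 in Tet2 KO. It was 1.78-fold higher in Tet2 KO, with a log2 ratio of 0.44, and was not past 2-fold. Hgf spans 16059313 to 16125257 on chromosome 5 and has 19 exons in its annotated transcript. Of 1040 genes with a mean FPKM from 1 to 2, 14.2% had a log2 ratio as high or higher, and Hgf did not stand apart from genes of its level. Thus the ligands other than Fgf21 all had higher values in Tet2 KO, and of those Fgf2 alone was past 2-fold.

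The depth behind the low values was estimated from genes with 1 annotated transcript in GENCODE vM1. In these, the lowest cluster of FPKM multiplied by length in kilobases was read in a set range from 0.012 to 0.03. Below that range lay 28 genes in Tet2 KO and 24 in WT. The median within it, 0.0221 in Tet2 KO and 0.0217 in WT, was taken as the worth of 1 fragment in a group. Fragment numbers and intervals depend on that range and on the annotated lengths, and are rough. With that worth of 1 fragment, Fgf21 rested on about 80 fragments in Tet2 KO and 369 in WT. The exact 95% interval of its log2 ratio without a pseudocount, which was -2.18, ran from -2.55 to -1.83. Hgf rested on about 191 and 109 fragments, and its interval ran from 0.49 to 1.19 around 0.83. These intervals cover counting error only and leave out the spread between libraries and animals, which may be larger. For Fgf2 the 7 annotated transcripts run from 323 to 1240 bases, so no fragment number was derived.

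**Figure D2:**
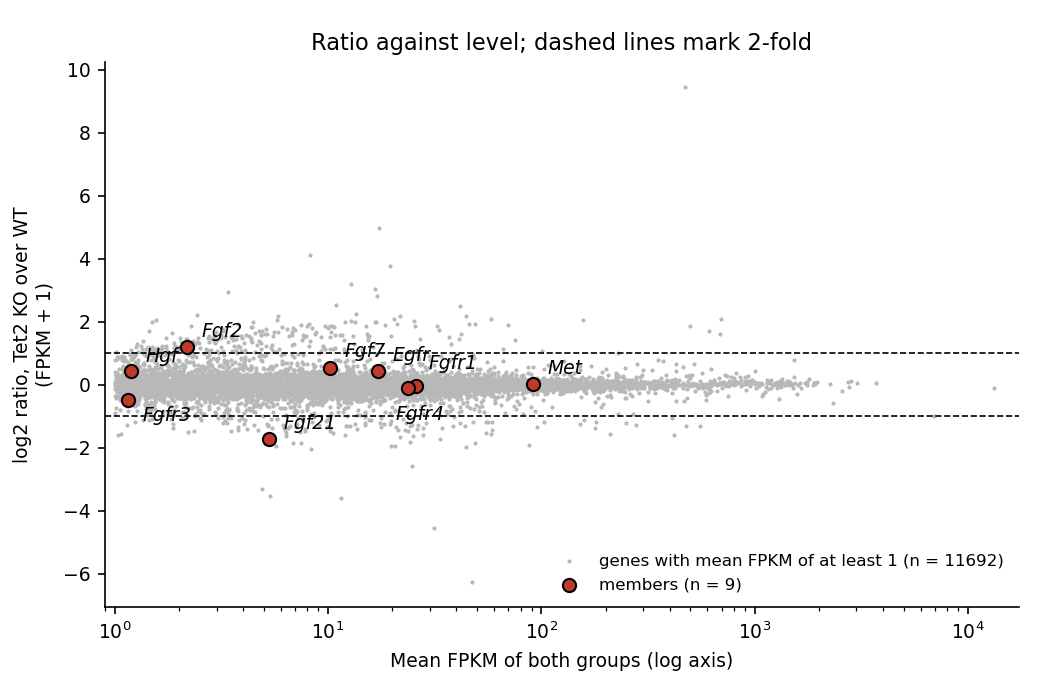
Log2 ratio of Tet2 KO over WT at a pseudocount of 1 (vertical axis) against the mean FPKM of both groups (log axis) for the 11692 genes that averaged 1 FPKM or more (grey) and the 9 members among them (red). Dashed lines mark 2-fold; Fgf2 at 1.19 and Fgf21 at -1.73 lie outside them, and the 7 other members lie between them.

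The receptors gave smaller differences. Met, the HGF receptor, was the most abundant member in both groups, with 90.5 FPKM in WT and 91.7 in Tet2 KO and a log2 ratio of 0.02. Met extends from 17413957 to 17523980 on chromosome 6. In both groups its level was far above that of its ligand Hgf.

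Fgfr1 and Fgfr4, the FGF receptors best known from myoblasts, followed in both groups. Fgfr1 had 26.2 FPKM in WT and 25.6 in Tet2 KO, and Fgfr4 had 24.7 and 22.7 FPKM. Their log2 ratios were -0.03 and -0.12. Of the 3627 genes with a mean FPKM from 20 to 100, 77.9% had a log2 ratio at least as far from 0 as Fgfr1, and 34.0% at least as far as Fgfr4. The order Met, Fgfr1, Fgfr4, Egfr held in both groups. Without a spread between libraries it cannot be said whether the neighbours Fgfr1 and Fgfr4 differ in level.

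Fgfr3 was much lower, with 1.53 FPKM in WT and 0.787 in Tet2 KO. Its log2 ratio was -0.50, and it was 1.94-fold lower in Tet2 KO without a pseudocount. Fgfr3 was the FGF receptor with the largest ratio, but at its level 6.06% of 1040 genes had a ratio as low or lower. Fgfr2, the receptor whose epithelial splice form binds FGF7, had 0.431 FPKM in WT and 0.372 in Tet2 KO and was the least abundant member in both groups. The gene-level values do not separate the splice forms of any receptor. Among the 4 FGF receptor members, Fgfr1 and Fgfr4 together supplied nearly all of the summed FPKM. Fgfr1 made up 51.8% of the summed FPKM of the 4 receptor genes in Tet2 KO and 49.6% in WT, and Fgfr4 made up 45.9% and 46.7%. That sum was 52.9 FPKM in WT and 49.5 in Tet2 KO. It leaves out Fgfrl1, examined with the co-receptors, which had 14.8 FPKM in WT and 17.1 in Tet2 KO.

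Egfr, the receptor of epidermal growth factor, had 14.5 FPKM in WT and 19.7 in Tet2 KO. It was 1.36-fold higher in Tet2 KO, with a log2 ratio of 0.42. At a mean FPKM from 5 to 20, 3.92% of 4312 genes had a log2 ratio as high or higher. Egfr spans 16652206 to 16813910 on chromosome 11, and no exon base is shared with another annotated gene. Among the 4 most abundant members, all of them receptors, Egfr had the largest ratio, although it was not past 2-fold.

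To place the members in their pathway, 94 further genes in 6 lists were examined. Of these, 61 averaged 1 FPKM or more. None was past 2-fold higher in Tet2 KO and 2 were past 2-fold lower, Fgfbp1 and Erbb3, against 2.08% higher and 1.21% lower among all 11692 genes. Counts this small are near those shares and set the lists apart in no direction. Their median log2 ratio was 0.02, with 31 genes above 0 and 30 below.

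The other FGF ligands were low. Of 19 genes 16 had a mean under 1 FPKM, and 4 were listed at 0 in at least 1 group. The 3 that reached the level were Fgf9, a secreted FGF, and Fgf11 and Fgf13, which act inside the cell. Fgf9 had 1.54 FPKM in WT and 2.70 in Tet2 KO, a log2 ratio of 0.54. In the same order, Fgf11 had 4.19 and 3.12 FPKM, and Fgf13 had 3.14 and 2.33 FPKM.

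Co-receptors, proteoglycans and secreted binding proteins are partners of FGFs. Of 15 such genes 11 reached the level, and their median log2 ratio was -0.08. Fgfbp1, a secreted carrier that releases FGFs from the matrix, was past 2-fold lower, with 9.64 FPKM in WT and 2.90 in Tet2 KO. Its log2 ratio was -1.45. The most abundant of these genes, the heparan sulfate proteoglycan Sdc4, had 267 FPKM in WT and 315 in Tet2 KO, and the largest positive log2 ratio of the list, 0.24.

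HGF is secreted as an inactive precursor that proteases cleave, and 11 genes of its activation and of the related ligand Mst1 were examined. Of these 5 reached the level. Their median log2 ratio of 0.56 was the highest among the 6 lists, and 0 were past 2-fold. With no filter the median over all 11 genes was 0.32. Plau, the protease urokinase, had 70.0 FPKM in WT and 103 in Tet2 KO, and its receptor gene Plaur had 63.8 and 87.7 FPKM. Spint1, an inhibitor of the HGF activator, had 1.97 and 3.70 FPKM. Plat, the tissue plasminogen activator, had 2.41 and 2.38 FPKM.

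Among the EGF ligands and ErbB receptors 5 of 11 genes reached the level. Erbb3, a receptor for neuregulins, was past 2-fold lower, with 24.3 FPKM in WT and 11.2 in Tet2 KO and a log2 ratio of -1.05. Erbb3 was the most abundant gene of the list in WT and by the mean of both groups. In Tet2 KO the ligand genes Hbegf and Areg had higher values than Erbb3. Erbb2, the partner of Erbb3, had a log2 ratio of -0.43. Hbegf, a ligand of Egfr, had 10.3 FPKM in WT and 15.9 in Tet2 KO, a log2 ratio of 0.58. Areg and Ereg, which are also ligands of Egfr, had log2 ratios of 0.22 and 0.31. Egfr and the 3 of its ligand genes that reached the level therefore all had higher values in Tet2 KO, and Erbb2 and Erbb3 had lower ones.

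Below the receptors, all 20 genes of adaptors and of the Ras-MAPK cascade reached the level, and 0 were past 2-fold, against 3.29% of all 11692 genes in either direction, so the count does not set them apart. The lowest log2 ratio was -0.32, for the adaptor gene Gab1. The most abundant, Map2k1, had 91.4 FPKM in WT and 92.5 in Tet2 KO. Feedback inhibitors and transcriptional targets gave a median log2 ratio of 0.10 over 17 of 18 genes, with 10 above 0 and 7 below. They ran from -0.16 for Spry1 to 0.52 for Spry4, both Sprouty inhibitors. Spry4 had 4.27 FPKM in WT and 6.55 in Tet2 KO. Errfi1, an inhibitor of Egfr and the most abundant gene of the list, had 283 FPKM in WT and 305 in Tet2 KO.

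**Figure D3:**
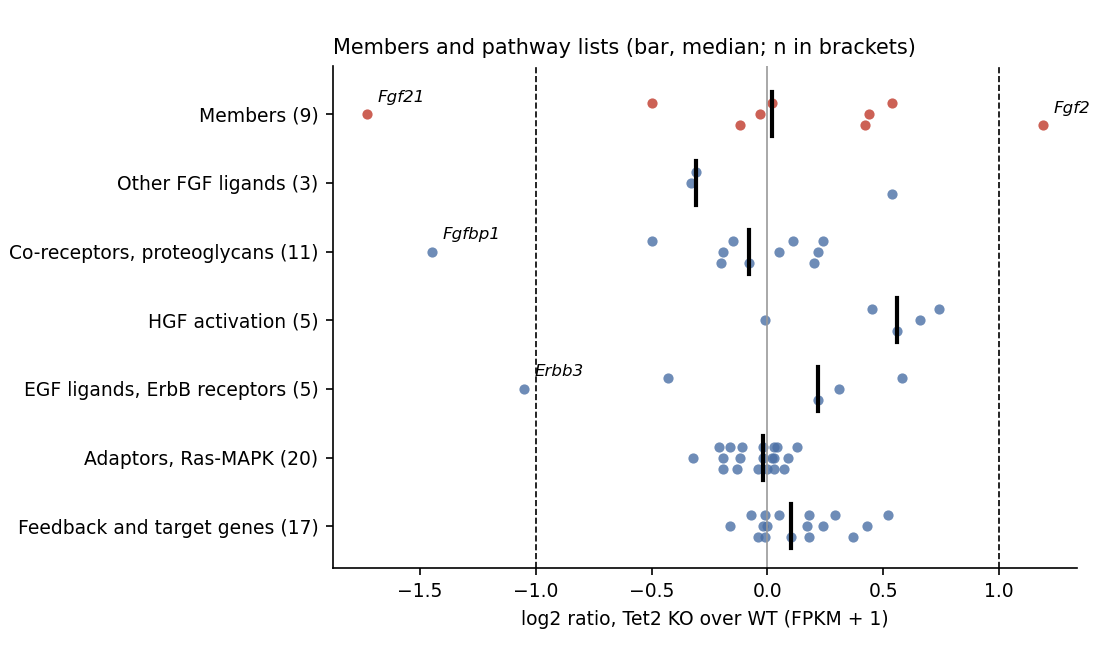
Log2 ratio of Tet2 KO over WT at a pseudocount of 1 for the members (red) and the 6 pathway lists (blue), 1 point per gene that averaged 1 FPKM or more, with the list median as a black bar and dashed lines at 2-fold. The points of the adaptors and Ras-MAPK genes gather around their median of -0.02, and Fgfbp1 and Erbb3 are the 2 pathway genes past the left line.

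The values of other cell types stand beside the ligands. Leukocyte markers had log2 ratios from 0.94 for Cd68 to 2.07 for Lyz2, with a median of 1.72. Fgf2 at 1.19 lay within that range, and Fgf7, Hgf and Egfr, at 0.54, 0.44 and 0.42, lay below it. Fibroblast markers ran from -0.50 for Postn to 0.95 for Dcn over 8 of 9 genes, with a median of 0.25 and 0 past 2-fold. With a pseudocount of 0.1, with none or as TPM, 1 was past it, Dcn, which had 3.15 FPKM in WT and 7.04 in Tet2 KO. Pdgfra, the receptor that marks fibroblast-like cells of muscle, had 1.06 FPKM in WT and 1.91 in Tet2 KO. All 9 fibroblast markers were above 0 in both groups, and their summed level was 456 FPKM in WT and 495 in Tet2 KO. Most of that sum came from Ly6a, which encodes the sort marker Sca1, and Col3a1, and the 7 other markers summed to 26.4 FPKM in WT and 36.6 in Tet2 KO. Endothelial and epithelial markers were low, with summed levels of 3.63 and 2.17 FPKM in Tet2 KO and 4.07 and 2.91 FPKM in WT. Whether the difference in leukocyte and fibroblast transcripts has a part in the values of the members was not tested.

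**Figure D4:**
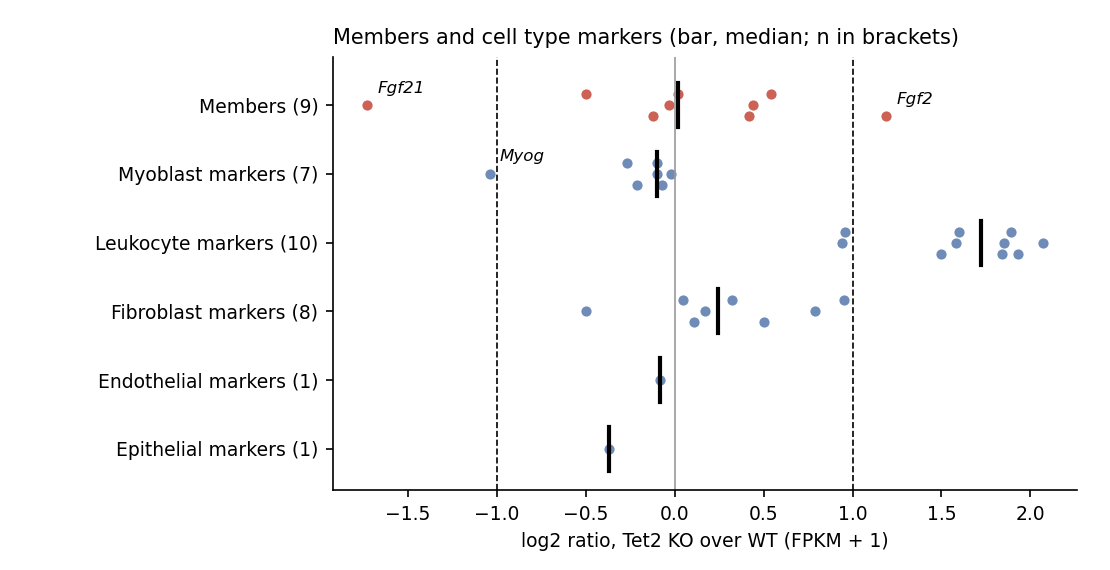
Log2 ratio of Tet2 KO over WT at a pseudocount of 1 for the members (red) and for markers of 5 cell types (blue), 1 point per gene that averaged 1 FPKM or more, with medians as black bars and dashed lines at 2-fold. The leukocyte markers lie from 0.94 to 2.07, to the right of 8 of the 9 members, and Myog is the 1 myoblast marker past 2-fold.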

How the data were processed

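Per the study's methods and the labels, the authors trimmed adapters, removed low-quality reads, aligned read pairs to mm9 with TopHat2 2.0.13 and estimated expression with Cuffdiff 2.2.1. Libraries came from 1 ug of total RNA with an Illumina TruSeq RNA v2 kit. The gene annotation and scaling were not given in the sources used here. The deposited table holds 1 FPKM value per gene and group, read here as pooling the 2 libraries of a group. It also holds the authors' own comparison (ratio, statistic, p-value, q-value), which was not used.

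Ratios were computed at a pseudocount of 1 FPKM for genes that averaged 1 FPKM or more over both groups, and counted at 2-fold. No test was possible. The members and lists were chosen with earlier results of these data known. Named were all members, pathway genes past 2-fold, the extreme and most abundant genes of each list (some are not reported here), Tet2 and marker genes; further genes, among them Nudt6, Galk2, Klb and other list members, were named after their values were seen. Table starts, counted from 0, had 1 added. Hras1 was matched as Hras. Promoters came from RefSeq (GRCm38.p6), exons from GENCODE vM1. Fragment intervals were exact (Clopper-Pearson, 95%). Alternatives were a pseudocount of 0.1 or none, no filter, a mean of at least 5 FPKM, TPM, median centring and 1.5-fold, the last also without a pseudocount (added after seeing the data). The code of the ratio and count steps was checked by putting known fold changes, without noise, into WT values of well-expressed genes. That check did not reach genes as low as Fgf2 and Fgf21. Work was done in Python 3.11.15 with pandas 2.3.3, numpy 2.4.6, matplotlib 3.10.9 and scipy 1.17.1.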

Additional observations from a re-analysis of the deposited data

How the results depend on the processing

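No paired analysis was possible because the table holds 1 pooled value per group, so that leaving out single libraries was not run either. Fgf2 stayed counted as higher and Fgf21 as lower with a pseudocount of 0.1 or none and with no filter. The same held as TPM, after median centring and at 1.5-fold. A smaller or absent pseudocount, no filter and the 1.5-fold threshold could not have removed either call, so these settings are no check of them. Median centring could hardly do so, since the median log2 ratio of all genes was -0.0044. At a mean of at least 5 FPKM 0 members were past 2-fold higher, since Fgf2 falls below that level by construction, and Fgf21 was still counted. The members' median of 0.02 turned to -0.01 both with no filter and at a mean of at least 5 FPKM. At 1.5-fold, 2 of the 61 pathway genes were higher, both in the HGF activation list, against 0 at 2-fold, and 2 were lower. The shares of all 11692 genes were 3.72% and 2.89%, so these counts are near them. At 1.5-fold without a pseudocount, a setting chosen after seeing the data, 3 of 9 members were higher and 2 lower. Of the pathway genes 5 were higher and 2 lower. Among 11687 genes above 0 in both groups, 4.94% were higher and 4.01% lower at that setting. Of single lists, with no filter the median of other FGF ligands turned from -0.31 to 0.0, of co-receptors from -0.08 to 0.02 and of EGF ligands and ErbB receptors from 0.22 to -0.0041, the last also to -0.11 at a mean of at least 5 FPKM. The pseudocount set the size of the low members' ratios: without it the log2 ratio was 1.87 for Fgf2, -2.18 for Fgf21, 0.83 for Hgf and -0.96 for Fgfr3. The spread between libraries is unknown for every value.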

Other observations

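A list of 11 genes of the integrated stress response, in which the factor ATF4 raises genes of amino acid synthesis and stress, was examined after the values of the members had been seen. Of these, 0 were past 2-fold in either direction, against 3.29% of the 11692 genes that averaged 1 FPKM or more, so that the count is near that share, and the median log2 ratio was 0.02. Atf4 itself had 255 FPKM in WT and 258 in Tet2 KO. Asns, asparagine synthetase, had 97.4 FPKM in WT and 96.7 in Tet2 KO, and Ddit3, the stress factor CHOP, had 15.5 and 14.9 FPKM. The list ran from -0.27 for Chac1, a glutathione-degrading enzyme, to 0.24 for the pseudokinase gene Trib3. Gdf15, a secreted stress hormone often measured together with FGF21, had 7.75 FPKM in WT and 9.06 in Tet2 KO. Whether that response has a part in the value of Fgf21 was not tested.

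Ly6a, which encodes the sort marker Sca1, had 278 FPKM in WT and 288 in Tet2 KO after culture, although the cells had been sorted as negative for it.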
